A study of Homo sapiens with 21 samples.

Results

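A list of 35 ribosome biogenesis and MYC target genes was followed through 21 RNA-seq libraries of A375 cells, an established human melanoma line. The genes were taken by name from a list. They encode nucleolar assembly factors, subunits of RNA polymerase I and products of genes that the transcription factor MYC is known to activate. Each was found once, by its Ensembl identifier, among the 58870 genes listed for every library, and all 35 passed the filter on low values, which asked for 10 or more in no fewer than 3 libraries and kept 19290 genes.

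The libraries formed 7 groups of 3. A375 parental cells carried no guide RNA and received no drug. The gSOX10 #2 and gSOX10 #4 cells were A375 cells edited by CRISPR/Cas9 with one or the other of a pair of guide RNAs to SOX10, the gene of a neural crest transcription factor. The titles of the gSOX10 #4 libraries carry a number by which the publication names a MeWo clone, MeWo being another melanoma line. The cell line label, A375, was followed here and was not tested, and all gSOX10 #4 values rest on it. Each guide was represented by 1 clone, and no clone with a control guide was analysed here. CRT34 and CRT35 were A375 cells that had become tolerant or resistant to inhibition of BRAF and MEK in mice, after which they were grown in culture with both inhibitors. Their Combo libraries came from cells on 1 µM PLX4720, a BRAF inhibitor, with 35 nM PD0325901, a MEK inhibitor, and their DMSO libraries from cells given the solvent for a time that is not given in the sources used here. No parental library with the inhibitors was analysed here, so line and drug cannot be told apart where a Combo group is set against parental cells. The study calls the libraries of the SOX10 clones independent replicates, without saying what was repeated, and the labels do not say whether libraries were separate cultures, so p-values measure the spread between these libraries, which may be technical.

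Ribosomes are built in the nucleolus. RNA polymerase I transcribes the precursor of the ribosomal RNAs, small nucleolar ribonucleoproteins (snoRNPs) modify it chemically, and large sets of assembly factors cut and fold it into the small and the large ribosomal subunit. MYC, a growth-promoting transcription factor that binds the E-box CACGTG together with MAX, activates many genes of this pathway, and the activity of the pathway is known to follow the growth rate of cells.

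The promoters of several members held an E-box close to the annotated start, and these stretches are shown because that sequence is what MYC and related factors bind. RefSeq promoter windows of build GRCh38.p14, from 250 bases before to 50 bases after the start, were matched to 31 of the 35 members. BOP1, NOLC1, NOP58 and RRP12 were not matched. CACGTG, which reads the same on both strands, was found in 10 of 31 member windows (32.3%) and in 1160 of the 11983 windows of protein-coding genes tested (9.68%). Each line below gives the gene, the position and 30 bases on the strand of the gene, with the E-box in capitals.

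UTP20, chr12:101280083-101280112, plus strand: cttttttccgtcCACGTGacccactcaggc
UTP4, chr16:69132621-69132650, plus strand: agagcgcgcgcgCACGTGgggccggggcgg
RRP9, chr3:51941892-51941921, minus strand: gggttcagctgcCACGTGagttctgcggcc
NOP14, chr4:2963374-2963403, minus strand: tccgcggcccggCACGTGtcttagggtagc
BYSL, chr6:41921515-41921544, plus strand: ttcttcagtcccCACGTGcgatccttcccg
WDR43, chr2:28894658-28894687, plus strand: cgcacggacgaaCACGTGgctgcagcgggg
FBL, chr19:39846356-39846385, minus strand: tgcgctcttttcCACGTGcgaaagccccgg
MRTO4, chr1:19251807-19251836, plus strand: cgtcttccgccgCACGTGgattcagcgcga
NOP2, chr12:6568242-6568271, minus strand: gctaggtccggattgCACGTGgagggccgc
PES1, chr22:30591880-30591909, minus strand: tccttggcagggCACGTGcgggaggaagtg

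In UTP20, UTP4 and RRP9 the E-box began 10, 16 and 5 bases before the start, and in the other 7 it began between positions 4 and 36, counting the start as 1. Factors of the small subunit held it in 6 of 7 matched windows and those of the large subunit in 3 of 10. FBL was the only other member with one, so the H/ACA snoRNP, RNA polymerase I, abundant nucleolar and metabolic members had it in 0 of their matched windows, 3, 2, 4 and 3 in number. A missing match says only that these letters are not in that window. The core ETS motif CCGGAA, searched on both strands, was in 51.6% of member windows and 27.3% of all, and the NRF1 core TGCGCA, likewise on both strands, in 25.8% and 12.6%. In related lists the E-box was in 34.3% of windows of other small subunit factors, 34.8% of other large subunit factors, 50% of other MYC targets, 8.33% of other RNA polymerase I genes and 2.86% of cytosolic ribosomal protein genes. A motif match is a description and not a binding site.

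The members lie on 17 chromosomes, 8 of them on chromosome 2. Introns or exons of 9 members (25.7%) contain annotated genes of small nucleolar RNAs, 28 in all, compared with 253 of 15113 protein-coding genes tested (1.67%). GNL3 holds 6, NOP56 holds 5 and NOP58 holds 4. Per kilobase of the canonical transcript, parental levels ran from 255081 ± 29164 for NPM1 (SD, n = 3) to 730 ± 44 for RRP1. NCL followed NPM1 at 31541 ± 4073 per kilobase, then C1QBP at 25768 ± 903, FBL at 17012 ± 1402 and NOP56 at 16759 ± 2638, the last 2 of which did not differ beyond their spread. NPM1 has many processed pseudogenes and PPAN is read through into its neighbour P2RY11, so their reads may be shared with other genes.

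Depth could be estimated only roughly. Taking the most common low value of a library as 1 read gave 27.13 to 75.51 M reads, but 17.8% to 63.9% of low values were whole multiples of it (within 0.05), and the scaled values of a library summed to 59.2 to 68.33 M. SOX10 was at 10348 to 12822 in parental cells, at 392 to 504 in gSOX10 #2, at 456 to 517 in gSOX10 #4 and at 6.32 or less in every CRT library, with 10 of 21 libraries at 0. The 10 neural crest and melanocytic markers, SOX10 included, summed to 19072 to 24629 in parental libraries and to 1601 to 10882 in the others. Not all of these fell. ERBB3 was at 5993 to 9355 in parental libraries and at 14.8 to 256 in the others. MITF was at 1390 to 1502 in parental libraries, at 862 to 2148 in gSOX10 #4 and at 1519 to 10247 in the other groups. TYRP1 was at 13.2 to 52.8 in parental libraries and at 154 to 831 in CRT34. NGFR was at 724 to 760 in parental libraries, at 966 to 1304 in gSOX10 #2 and at 142 or less elsewhere. MLANA and TYR were at 0 in 21 and 20 libraries. Fibroblast markers, all 5 of them summed, were at 468 to 594.6 in parental, 1860 to 2369 in gSOX10 #2, 1127 to 1388 in gSOX10 #4 and 59224 to 270258 in CRT libraries. Among leukocyte markers, CD68, a lysosomal protein of macrophages, was at 1156 to 1286 in parental libraries and at 3174 to 16858 in the others, whereas CD3E was at 0 in 19 libraries, PTPRC was at 44.5 at most and ITGAM at 30.6 at most. All 15 proliferation markers summed to 305768 to 375244 in parental libraries and to 103835 to 280869 in the other groups. In each comparison with parental cells 6 to 10 of them were called lower, where 7.35% to 10.2% of all genes were. The part of these cell type and proliferation differences in the results below was not tested.

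Expression of most members was lower than in parental cells in gSOX10 #2 and in the CRT groups, and of fewer in gSOX10 #4. Calls required a limma p of at most 0.05 after Benjamini-Hochberg adjustment across all 19290 genes, together with a change of 2-fold or more. All fold changes are on the log2(value + 1) scale. The 6 comparisons share the parental libraries, so they are given side by side. In gSOX10 #2, 21 of 35 members were called and all of them fell, while 7.78% of all genes were called lower. In gSOX10 #4, 3 of 35 fell by this rule, against 8.91% of all genes, which is near the background. CRT34 DMSO had 7 lower calls (background 7.35%) and CRT35 DMSO had 9 (background 7.98%). CRT34 Combo had 15 lower calls (background 8.09%) and CRT35 Combo had 20 (background 10.2%). The 1 member called higher was ODC1, in CRT34 DMSO, CRT35 DMSO and CRT34 Combo, where 15.7%, 15.7% and 19.1% of all genes were called higher.

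**Figure D1:**
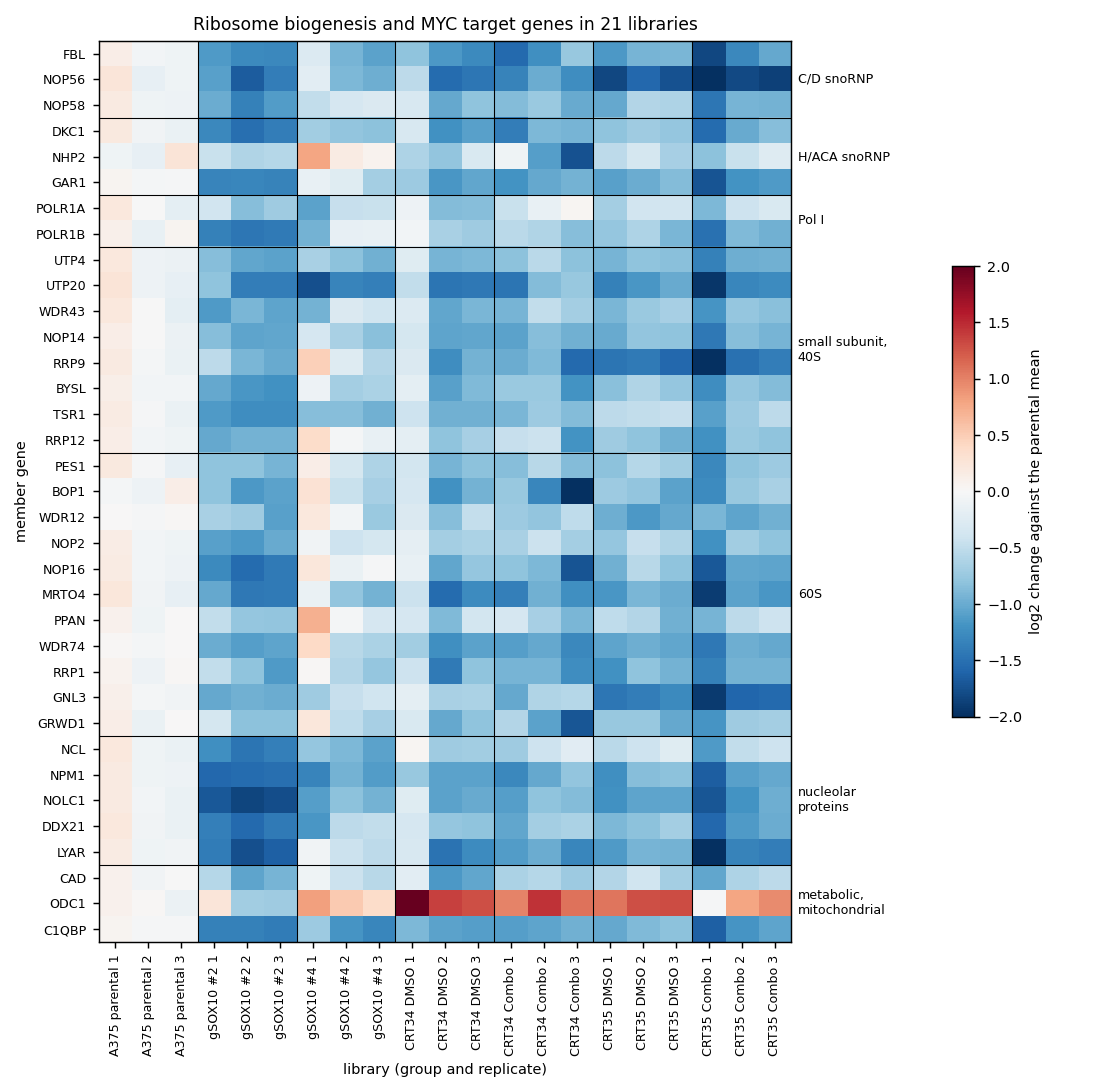
Log2 change of each member (rows, in blocks by role) in each of the 21 libraries (columns) against the mean of the 3 parental libraries, with blue below and red above that mean and the colour scale ending at 2 in each direction. Blue fills gSOX10 #2 and the CRT columns for most rows, gSOX10 #4 is paler, and ODC1 is red in the CRT columns.

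Many members fell by less than 2-fold. By the adjusted p alone, 33 members were lower in gSOX10 #2 (20.2% of all genes), 15 in gSOX10 #4 (18.8%), 30 in CRT34 DMSO (18.8%), 31 in CRT35 DMSO (19.2%), 32 in CRT34 Combo (21.5%) and 33 in CRT35 Combo (23.5%). With ODC1, which was higher, 31 members passed in CRT34 DMSO, and 20 did without CRT34 DMSO replicate 2. The median log2 change of the 35 members was -1.08, -0.44, -0.75, -0.84, -0.92 and -1.10 in that order, where the median of all genes lay between 0.00 and 0.05. In gSOX10 #2, 34 members had all 3 libraries below all 3 parental ones, as did 28.9% of all genes. In gSOX10 #4, 19 members did (24.6% of all genes).

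As a share of all values in a library, the members together took 1.35% to 1.52% in parental cells and 0.548% to 1.07% elsewhere, and without NPM1 0.859% to 0.959% and 0.37% to 0.766%. Values are shares of the RNA in a library, so less of these transcripts per cell and more of other transcripts cannot be told apart in such bulk samples. Within groups, single libraries stood apart over most members. CRT34 DMSO replicate 1 was the highest of its group for 34 of 35 members, parental replicate 1 for 32, gSOX10 #2 replicate 1 for 28 and gSOX10 #4 replicate 1 for 25. CRT35 Combo replicate 1 was the lowest of its group for 34, CRT34 DMSO replicate 2 for 29 and CRT35 DMSO replicate 1 for 26. Parental replicate 1 enters all 6 comparisons with parental cells. Without it the members' median was -0.66 in CRT34 DMSO and -1.01 in CRT35 Combo, and 11 members passed the adjusted p in gSOX10 #4. Without CRT34 DMSO replicate 1, 16 members fell in CRT34 DMSO, whereas 2 did without its replicate 2, 1 without its replicate 3 and 3 without parental replicate 1.

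**Figure D2:**
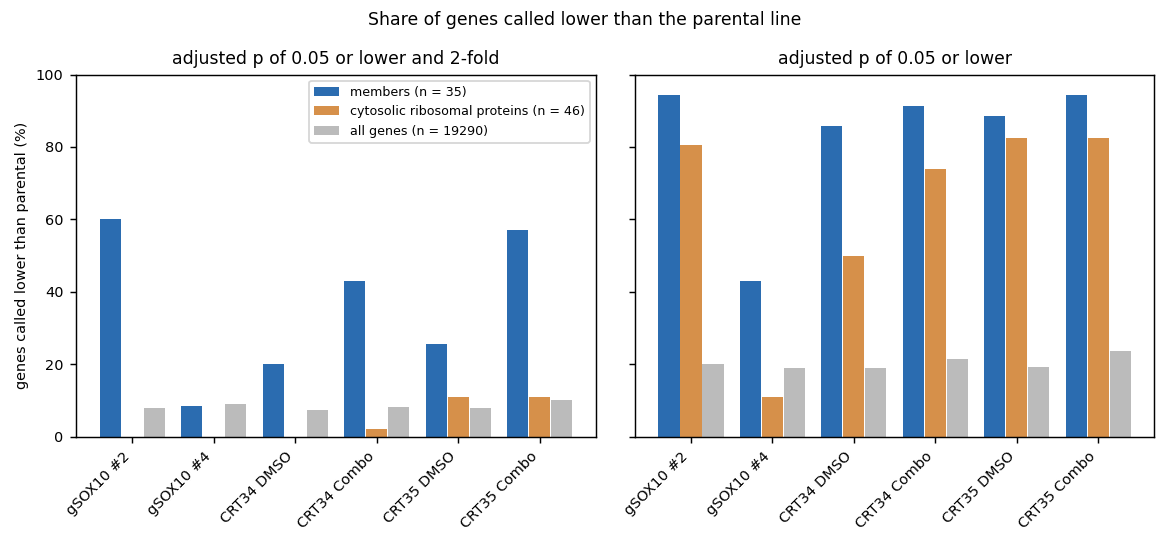
Percentage of genes called lower than parental in each derived group (bars), for the 35 members, 46 cytosolic ribosomal protein genes and all 19290 genes tested, under both thresholds (left) and under the adjusted p alone (right). Member bars are above those of all genes in all 6 groups on the right and in all but gSOX10 #4 on the left.

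The core proteins of the C/D box snoRNPs, which place methyl groups on ribosomal RNA, fell past both thresholds in 5 (NOP56), 4 (FBL) and 2 (NOP58) of the 6 comparisons. NOP56, a core protein of these particles, was at 37820, 28420 and 29939 in parental libraries, at 14935, 10063 and 12245 in gSOX10 #2 and at 27390, 17100 and 16247 in gSOX10 #4. In CRT34 its values were 22174, 10950 and 11733 with DMSO and 12623, 15920 and 13516 with Combo. In CRT35 they were 8996, 10705 and 9512 with DMSO and 5566, 9129 and 8741 with Combo. Every derived library lay below every parental library, and CRT35 Combo was the lowest group. The log2 change was -2.06 in CRT35 Combo (SE 0.25, limma adjusted p = 1.98e-06), -1.71 in CRT35 DMSO (adjusted p = 2.26e-05), and between -1.17 and -1.38 in gSOX10 #2 and both CRT34 groups. It was -0.69 in gSOX10 #4 (adjusted p = 0.0367), under 2-fold.

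FBL, fibrillarin, the methyltransferase of the same particles, was at 18081 to 20951 in parental cells and at 15785 or less in every other library. It fell more than 2-fold in gSOX10 #2 (-1.23), CRT34 DMSO (-1.08), CRT34 Combo (-1.18) and CRT35 Combo (-1.38, limma adjusted p = 4.01e-05). NOP58, the partner of NOP56, fell past both thresholds in gSOX10 #2 (-1.15) and CRT35 Combo (-1.10) and was at -0.37 in gSOX10 #4 (adjusted p = 0.105). Thus all 3 C/D members were called in gSOX10 #2 and in CRT35 Combo.

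H/ACA box snoRNPs convert uridines of ribosomal RNA to pseudouridine, and their members did not all move alike. DKC1, dyskerin, the pseudouridine synthase, was at 29742, 24596 and 23650 in parental cells and at 10610, 9119 and 9933 in gSOX10 #2. In CRT34 Combo it was at 9920, 13888 and 13543, and in CRT35 Combo at 8889, 12920 and 14256. Neither these groups nor gSOX10 #2 overlapped the parental libraries, and the log2 changes were -1.39, -1.07 and -1.13 (limma adjusted p = 2.21e-05, 2.53e-04 and 1.10e-04). GAR1, a core protein of the same particles, fell past both thresholds in the same 3 groups, by 1.31, 1.05 and 1.35 on the log2 scale. NHP2, another core protein, was lower by the adjusted p in 1 comparison, CRT34 Combo (-0.98, adjusted p = 0.00895), where the groups overlapped. In gSOX10 #4 its value was 14914, 9675 and 9082 against 8146, 7693 and 10286 in parental cells, a log2 change of 0.34 (adjusted p = 0.37).

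The RNA polymerase I subunits differed from each other. POLR1B, the second largest subunit, was at 9558, 7988 and 9212 in parental cells, at 3494, 3249 and 3341 in gSOX10 #2 and at 3172, 4818 and 4580 in CRT35 Combo. Both groups lay below parental without overlap, with log2 changes of -1.40 (SE 0.21, limma adjusted p = 3.10e-05) and -1.11 (adjusted p = 2.08e-04). POLR1A, the largest subunit, passed the adjusted p in 4 of 6 comparisons, none at 2-fold. Its changes ran from -0.66 in gSOX10 #4 to -0.18 in CRT34 Combo (adjusted p = 0.518).

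Small subunit factors gave the 1 member that was called in all 6 comparisons. UTP20, a large scaffold protein of small subunit assembly, was at 15145, 11758 and 11325 in parental libraries, at 7207, 4828 and 4832 in gSOX10 #2 and at 3733, 5036 and 4890 in gSOX10 #4. Its values in CRT34 were 8936, 4589 and 4671 with DMSO and 4570, 6914 and 7479 with Combo. In CRT35 they were 4926, 5620 and 6309 with DMSO and 3269, 5136 and 5283 with Combo. All 18 derived libraries were below the lowest parental one. The log2 changes were -1.19 in gSOX10 #2, -1.48 in gSOX10 #4, -1.13 in CRT34 DMSO, -1.18 in CRT35 DMSO and -1.03 in CRT34 Combo (SE 0.26 in each), and CRT35 Combo was 2.83-fold lower. Their limma adjusted p lay between 8.39e-05 and 0.00298. The CRT34 Combo call was under 2-fold without parental replicate 1 (-0.90), without CRT34 Combo replicate 1 (-0.81), with equal totals (-0.93), with quantile normalization (-0.92) and with library weights (-0.89).

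Of the other 7 small subunit members, TSR1, a late maturation factor, had the lowest p in gSOX10 #2, with 12237, 11432 and 11430 against 30036, 26565 and 24414 in parental cells (-1.20, limma adjusted p = 2.83e-06). WDR43 and BYSL, factors of early and late small subunit assembly, also fell more than 2-fold there, by 1.04 and 1.13 on the log2 scale. RRP9, a protein that binds the U3 snoRNP, fell most in CRT35, where it was at 1567, 1617 and 1454 with DMSO and at 1020, 1523 and 1658 with Combo against 4856, 4167 and 3938 in parental cells. These changes were -1.48 (adjusted p = 1.92e-04) and -1.65 (adjusted p = 4.69e-05), and its value in gSOX10 #4 was -0.12 (adjusted p = 0.754), overlapping parental cells. UTP4 and NOP14, both of the early small subunit particle, were lower by the adjusted p in all 6 comparisons and past 2-fold in CRT35 Combo (-1.10 and -1.07).

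Among the 11 members that mature the large subunit, 5 fell past both thresholds in gSOX10 #2, 6 in CRT34 Combo and 5 in CRT35 Combo. Of all genes, 7.78%, 8.09% and 10.2% did in these groups. In gSOX10 #4, GNL3 was the 1 member of these lower by the adjusted p alone (-0.53). GNL3, nucleostemin, a nucleolar GTP-binding protein, was at 20719, 18704 and 18444 in parental cells. In CRT35 it was at 7075, 7383 and 7947 with DMSO and at 5119, 6415 and 6551 with Combo. In CRT34 it was at 16804, 12263 and 12448 with DMSO and at 9465, 12712 and 12985 with Combo. The CRT35 libraries were all below every CRT34 and every parental library. GNL3 fell by 1.37 and 1.68 on the log2 scale in the CRT35 groups (SE 0.14, limma adjusted p = 3.50e-07 and 1.94e-08) and by 0.49 and 0.73 in the CRT34 groups.

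MRTO4 and WDR74, a factor of ribosomal stalk assembly and a factor of early large subunit particles, were called in 5 of 6 comparisons, all but gSOX10 #4. MRTO4 ran from 10875 to 14265 in parental cells and from 3252 to 6449 in the CRT35 groups (-1.02 with DMSO and -1.38 with Combo). WDR74 was at 4579, 4395 and 4534 in parental cells and at 2166, 2294 and 2197 in CRT35 DMSO, without overlap (-1.02, limma adjusted p = 5.09e-04). BOP1, PES1 and WDR12 form 1 complex and were called in 2, 0 and 1 of the 6 comparisons. BOP1 fell in gSOX10 #2 (-1.01) and CRT34 Combo (-1.35), WDR12 in CRT35 DMSO (-1.05), and PES1 had changes of -0.28 to -0.93. NOP2, an RNA methyltransferase, fell past 2-fold in gSOX10 #2 (-1.08), RRP1 in both Combo groups (-1.03 and -1.08) and the histone-binding GRWD1 in CRT34 Combo (-1.12). PPAN was past the adjusted p in 4 comparisons, none at 2-fold.

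The abundant nucleolar proteins fell together in gSOX10 #2, where all 5 were called. NPM1, nucleophosmin, a histone and ribosome chaperone, was at 381137, 315694 and 313290 in parental libraries, at 113404, 115801 and 117649 in gSOX10 #2 and at 134959, 173583 and 155207 in gSOX10 #4. In CRT34 its values were 197327, 160460 and 158968 with DMSO and 136592, 164686 and 193420 with Combo. In CRT35 they were 143629, 186276 and 189026 with DMSO and 107346, 157357 and 164732 with Combo. No derived library reached the lowest parental value, and gSOX10 #2 had the lowest mean. The log2 changes were -1.54 (SE 0.17, limma adjusted p = 1.18e-06) in gSOX10 #2, -1.12 (adjusted p = 4.46e-05) in gSOX10 #4, -1.04 in CRT34 Combo and -1.25 in CRT35 Combo. In both DMSO groups it was -0.97, under 2-fold.

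NOLC1, a chaperone of snoRNPs in the nucleolus, had the largest fall of any member in gSOX10 #2. It was at 45680, 38918 and 36785 in parental cells and at 12389, 11294 and 11837 there, a log2 change of -1.77 (SE 0.19, limma adjusted p = 8.91e-07). NCL, nucleolin, fell in gSOX10 #2 (-1.35, adjusted p = 3.22e-05), and its values in CRT34 DMSO, CRT35 DMSO and CRT34 Combo were -0.46, -0.40 and -0.45 (adjusted p = 0.0766, 0.12 and 0.0725). DDX21, a nucleolar RNA helicase, fell past both thresholds in gSOX10 #2 (-1.45) and CRT35 Combo (-1.23). LYAR, a nucleolar zinc finger protein, fell past both in 5 comparisons, all but gSOX10 #4, by 1.00 to 1.60 on the log2 scale.

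**Figure D3:**
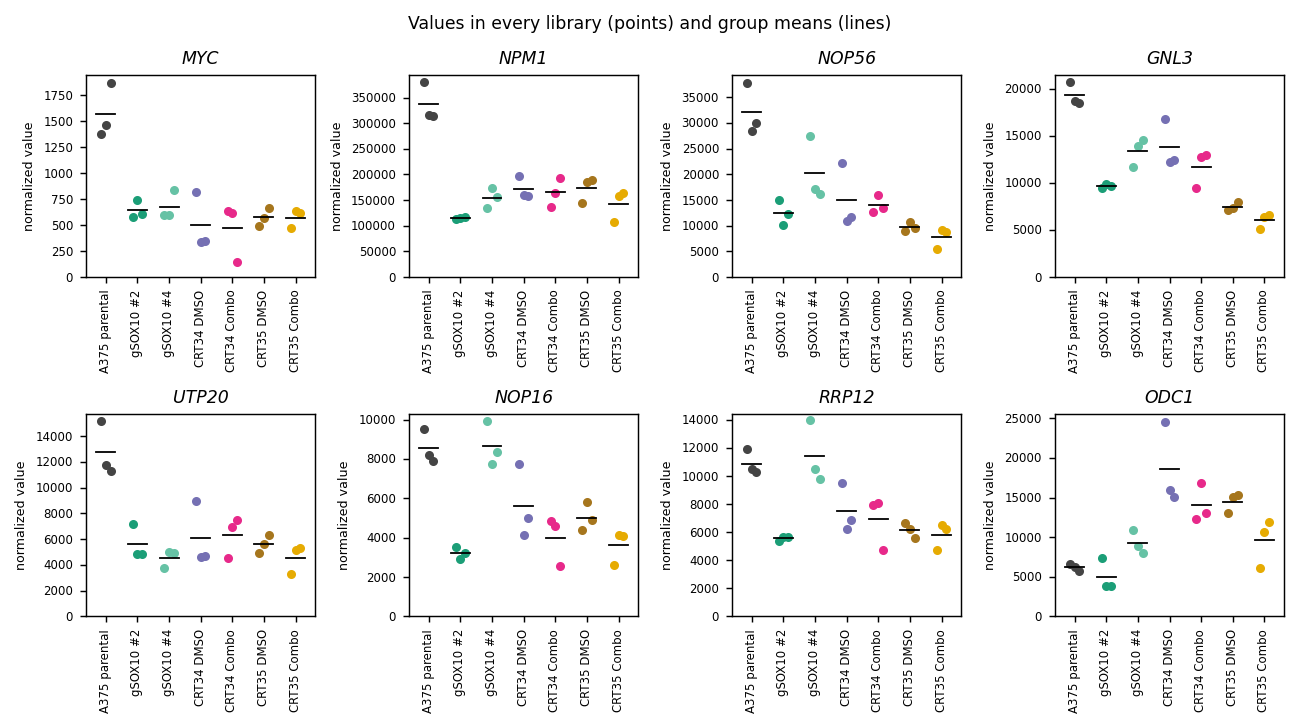
Normalized value (linear axes from 0) of MYC and 7 members in every library (points), by group, with the group mean as a line. Parental points are the highest for MYC, NPM1, NOP56, GNL3 and UTP20, gSOX10 #4 points reach the parental level for NOP16 and RRP12, and ODC1 is highest in CRT34 DMSO.

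The metabolic MYC targets moved apart. C1QBP, a mitochondrial matrix protein, was at 31341, 29526 and 29500 in parental cells, at 11764, 11771 and 11401 in gSOX10 #2 and at 18123, 13267 and 12203 in gSOX10 #4. No derived library exceeded 18123. It fell by 1.37 and 1.07 on the log2 scale in these clones (SE 0.14, limma adjusted p = 5.41e-07 and 1.05e-05) and past both thresholds in all CRT groups but CRT35 DMSO (-0.90). CAD, the enzyme that begins pyrimidine synthesis, was lower by the adjusted p in 5 comparisons, at -0.56 to -0.85, and at -0.36 in gSOX10 #4 (adjusted p = 0.171).

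ODC1, ornithine decarboxylase, the rate-limiting enzyme of polyamine synthesis, went the other way in the CRT lines. It was at 6598, 6266 and 5722 in parental cells. In CRT34 it was at 24532, 15987 and 15121 with DMSO and at 12298, 16810 and 13113 with Combo. In CRT35 it was at 13029, 15113 and 15359 with DMSO and at 6106, 10706 and 11954 with Combo. CRT35 Combo alone of these overlapped parental cells. ODC1 rose by 1.55 on the log2 scale in CRT34 DMSO (SE 0.26, limma adjusted p = 9.39e-05), by 1.23 in CRT35 DMSO (adjusted p = 7.83e-04) and by 1.17 in CRT34 Combo (adjusted p = 0.00108), and was at 0.57 in CRT35 Combo (adjusted p = 0.0689).

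In the SOX10 clones ODC1 was at 7325, 3802 and 3794 (gSOX10 #2) and at 10881, 8914 and 7957 (gSOX10 #4), neither of which passed the test against parental cells. Of 10 other genes of polyamine and pyrimidine synthesis, SAT1, which acetylates spermidine and spermine for export or breakdown, rose in all 6 comparisons by 1.25 to 2.68 on the log2 scale. SMS, spermine synthase, fell past both thresholds in gSOX10 #2 (-1.06), CRT34 DMSO (-1.37), CRT34 Combo (-1.18) and CRT35 Combo (-1.05). DHODH, of pyrimidine synthesis, fell in gSOX10 #2 (-1.23), gSOX10 #4 (-1.25), CRT34 DMSO (-1.26) and CRT34 Combo (-1.07), and UMPS, the last enzyme of UMP synthesis, in CRT35 DMSO (-1.30) and CRT35 Combo (-1.49). CTPS1, CTP synthase, fell in gSOX10 #2 (-1.15), CRT35 DMSO (-1.03) and CRT35 Combo (-1.33).

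The SOX10 knockout clones differed from each other in these genes, which was tested directly. By the adjusted p, 18 of 35 members were higher in gSOX10 #4 than in gSOX10 #2, against 8.88% of all genes, and the median difference was 0.66 on the log2 scale. Without gSOX10 #2 replicate 3, 10 members passed the adjusted p. The median difference was 0.45 without gSOX10 #4 replicate 1 and 0.74 without gSOX10 #4 replicate 3. In 27 members all gSOX10 #4 libraries lay above all gSOX10 #2 libraries, as in 16% of all genes. At 2-fold, 3 were called, all higher (2.64% of all genes), and 7 were without gSOX10 #4 replicate 3.

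NOP16, a large subunit factor, was at 9506, 8217 and 7911 in parental cells, at 3526, 2927 and 3200 in gSOX10 #2 and at 9922, 7732 and 8352 in gSOX10 #4. The gSOX10 #4 libraries overlapped the parental ones and lay above gSOX10 #2, by 1.43 on the log2 scale (SE 0.24, limma adjusted p = 3.34e-04). LYAR was at 3555, 2766 and 3020 in gSOX10 #2 and at 8900, 6992 and 6538 in gSOX10 #4, a difference of 1.26 (SE 0.23, adjusted p = 7.32e-04). RRP12, an export factor of both subunits, was at 5353, 5659 and 5662 in gSOX10 #2 and at 13966, 10522 and 9811 in gSOX10 #4, a difference of 1.02 (SE 0.20, adjusted p = 0.001), which was 0.87 without gSOX10 #4 replicate 1. By contrast UTP20 (-0.29), POLR1A (-0.01) and C1QBP (0.30) had no call between the clones, and the 95% interval of UTP20 ran from -0.83 to 0.25.

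Proliferation markers had no call between the clones in limma, with 0 of 15 past the adjusted p and a median difference of 0.13. Of the 46 cytosolic ribosomal protein genes, 37 were higher in gSOX10 #4 than in gSOX10 #2 by the adjusted p (8.88% of all genes). Their median difference was 0.62, and 0 reached 2-fold as well.

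Within the tolerant lines, no member was called between Combo and DMSO. These lines were grown with both inhibitors, so the DMSO libraries show cells taken off them. In CRT34, 0 of 35 members passed the adjusted p from limma with Combo against DMSO, where 7.86% of all genes did in either direction, and 0 had an unadjusted p under 0.05, where 21.6% of all genes did. The median log2 change was -0.13, 30 of 35 estimates were below 0, and the 95% intervals all spanned 0, from -1.11 at the lowest bound (BOP1) to 0.89 at the highest (POLR1A). The sign of this median rested on 1 library, CRT34 DMSO replicate 1, without which it was 0.05. It was -0.26 without CRT34 DMSO replicate 2, -0.06 without CRT34 Combo replicate 1 and 0.06 with library weights. In CRT35, 0 of 35 passed the adjusted p, where 1.57% of all genes did. An unadjusted p under 0.05 was reached by 6 (C1QBP, ODC1, LYAR, DDX21, GAR1 and GNL3), near the background of 15.5% of all genes. The median there was -0.28, 32 of 35 estimates were below 0, and the intervals ran from -1.19 (ODC1) to 0.60 (NHP2). Without CRT35 Combo replicate 1 the median was -0.09.

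In each line the interval of 33 of 35 members left out a 2-fold fall, the exceptions being BOP1 and NHP2 in CRT34 and ODC1 and LYAR in CRT35, and no interval reached a 2-fold rise. In 10 members all CRT35 Combo libraries lay below all CRT35 DMSO libraries, as in 12.3% of all genes, and in CRT34 this held for 0 members (9.44% of all genes). With libraries weighted by their spread, 5 members passed the adjusted p in each line. In CRT34 these were POLR1A (0.64), UTP20 (0.45), WDR43 (0.35) and CAD (0.42), which were higher with Combo, and NHP2 (-0.58). In CRT35 they were GNL3, DDX21, LYAR, ODC1 and C1QBP, lower by 0.26 to 0.53. Of 12 genes that report MAPK pathway output, 6 in CRT34 and 8 in CRT35 fell past both thresholds with Combo. Of all genes, 7.86% and 1.57% passed the adjusted p alone in either direction. DUSP6, for example, fell by 2.52 and 2.38 on the log2 scale.

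**Figure D4:**
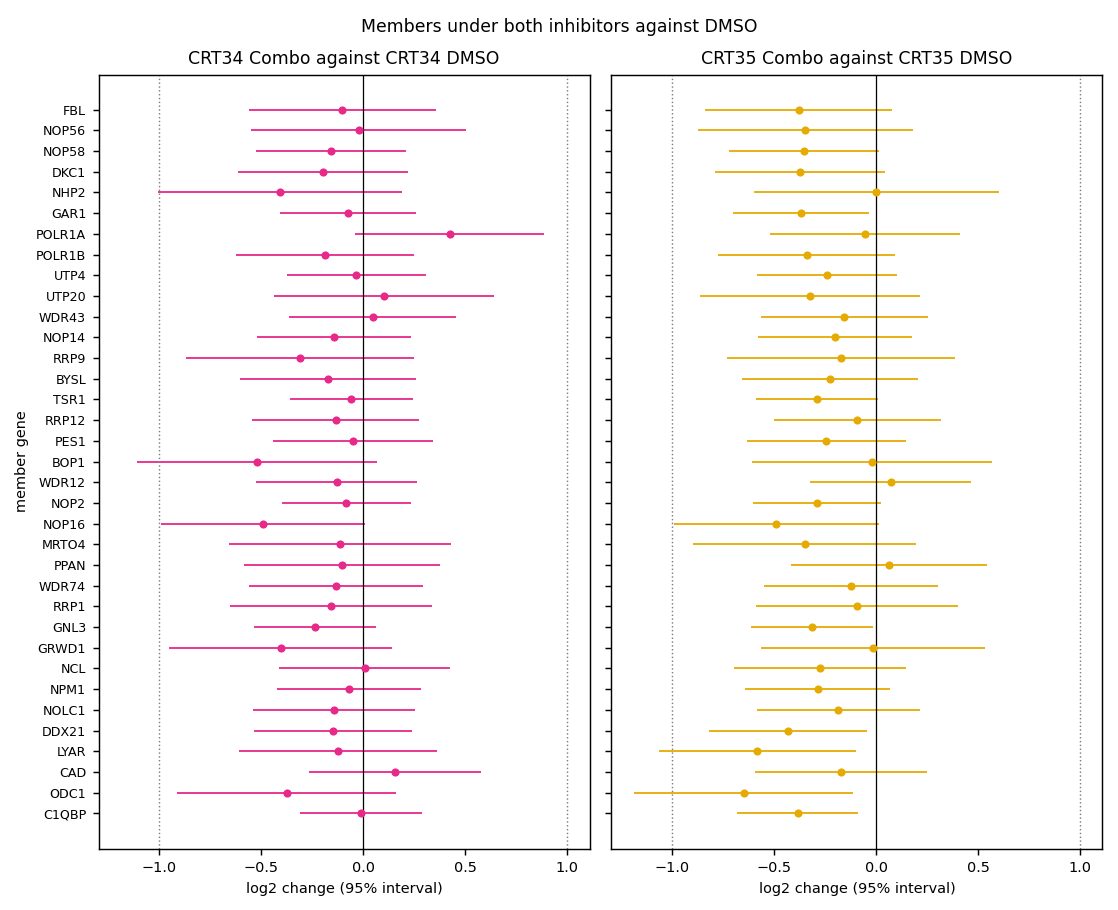
Log2 change of each member with both inhibitors against DMSO (points, with 95% intervals as bars) in CRT34 (left) and CRT35 (right), with dotted lines at a 2-fold change in each direction. All intervals span 0 on the left, 29 of 35 do on the right, and most points lie slightly below 0 in both.

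The difference between the lines in the change of Combo against DMSO was tested as an interaction. No member passed the adjusted p from limma, as 0.0104% of all genes did, and 0 had an unadjusted p under 0.05, as 6.96% of all genes did. The intervals, with a median half-width of 0.60 on the log2 scale, ran from -1.19 to 1.33. Without drug, CRT35 DMSO and CRT34 DMSO were set against each other, and GNL3 was the 1 member past the adjusted p (-0.88 in CRT35 relative to CRT34, SE 0.14, adjusted p = 3.61e-04), where 8.22% of all genes were lower in CRT35 by that rule.

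MYC itself was lower in each derived group. It was at 1380, 1462 and 1863 in parental cells, at 580, 745 and 603 in gSOX10 #2 and at 595, 599 and 836 in gSOX10 #4. In CRT34 it was at 816, 339 and 348 with DMSO and at 635, 621 and 147 with Combo. In CRT35 it was at 492, 567 and 663 with DMSO and at 474, 632 and 612 with Combo. No derived library reached the lowest parental value of 1380, while the derived groups overlapped one another.

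MYC fell by 1.28 on the log2 scale in gSOX10 #2 (SE 0.41, limma adjusted p = 0.0175) and by 1.22 in gSOX10 #4 (adjusted p = 0.0264). It fell by 1.76 and 1.45 in CRT34 DMSO and CRT35 DMSO (adjusted p = 0.00226 and 0.00859), and by 2.00 and 1.45 in CRT34 Combo and CRT35 Combo (adjusted p = 6.65e-04 and 0.00672). The gSOX10 #2 call was lost without parental replicate 3 (adjusted p = 0.0633) and the gSOX10 #4 call without any 1 of 4 libraries, parental replicates 2 and 3 and gSOX10 #4 replicates 1 and 2 (up to 0.0886). With 1 library left out at a time, the change ran from -2.36 to -1.31 in CRT34 Combo and from -2.17 to -1.54 in CRT34 DMSO. Both calls were kept. For CRT34 Combo against CRT34 DMSO it ran from -0.60 to 0.45, so its sign was not stable. MYC did not pass the test between the clones (0.06, adjusted p = 0.941), nor between Combo and DMSO in CRT34 (-0.24, adjusted p = 0.797) or CRT35 (adjusted p = 1). In the 10 members with an E-box and the 21 matched members without, the median change was -1.06 and -1.20 in gSOX10 #2, -0.93 and -0.98 in CRT34 Combo and -1.08 and -1.11 in CRT35 Combo. The order was the other way in gSOX10 #4 (-0.58 and -0.42), CRT34 DMSO (-0.78 and -0.71) and CRT35 DMSO (-0.86 and -0.80).

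Of the genes of MYC and its dimerization network, 10 of 11 were tested, the exception being MYCN. MXD4, which represses E-box genes together with MAX, was at 405, 557 and 553 in parental cells and at 902 or more in every other library. It rose past both thresholds in all 6 comparisons, by 1.44 to 2.20 on the log2 scale. MXD1, a repressor of the same family, rose in gSOX10 #4 (1.11), CRT34 DMSO (1.36), CRT35 DMSO (1.26) and CRT34 Combo (1.19), and MXD3 rose in CRT35 Combo (1.74). In gSOX10 #4, MGA (-1.08) and MYCL (-1.85) fell, and MXI1 fell in CRT35 DMSO (-1.02). MYCL was near the filter value of 10, at 22.0 to 23.1 in parental cells and at 3.85 to 7.67 in gSOX10 #4. MGA was at 1271, 2681 and 2842 in gSOX10 #4 against 4261 to 4776 in parental cells, so its replicate 1 stood apart.

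Genes of related lists also had lower calls, in numbers that differed between the groups. Of all genes, 7.78% were called lower in gSOX10 #2, 8.91% in gSOX10 #4, 7.35% in CRT34 DMSO and 7.98% in CRT35 DMSO. In the Combo groups this share was 8.09% in CRT34 and 10.2% in CRT35. For the other small and large subunit factors, counts in gSOX10 #4, both DMSO groups and CRT34 Combo were near or below these shares. Of 41 other small subunit factors, 13 fell past both thresholds in gSOX10 #2, led by PDCD11 (-1.30) and DCAF13 (-1.22), 1 in gSOX10 #4 (NOL11, -1.14), 2 and 3 in CRT34 DMSO and CRT35 DMSO and 3 and 9 in the Combo groups. Of 28 other large subunit factors, 13 fell in gSOX10 #2, led by FTSJ3 (-1.08) and NIP7 (-1.31), and 3 and 9 in CRT34 Combo and CRT35 Combo. In gSOX10 #4 and CRT34 DMSO limma called 0 of them past both thresholds, although their median change was below 0 in each. In CRT35 DMSO it called GTPBP4 (-1.01). Of 14 other genes of RNA polymerase I transcription, 5 fell in gSOX10 #2 and 5 in CRT35 Combo. TCOF1, treacle, which brings the polymerase to ribosomal DNA, fell by 1.83 in gSOX10 #2 and 1.60 in CRT34 Combo on the log2 scale. Among 22 MYC targets outside the nucleolus, 9 fell in gSOX10 #2 and 3 in gSOX10 #4, with UNG, uracil DNA glycosylase, past both thresholds in all 6 comparisons (-1.15 to -1.70). Counts of this list and of the RNA polymerase I list in the remaining groups are not given here, so the falls are not confined to the groups named.

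Cytosolic ribosomal protein genes, whose products are the ribosome's own parts, had few calls at 2-fold. In gSOX10 #2, 37 of 46 were lower by the adjusted p (20.2% of all genes), of which 0 reached 2-fold in limma. The median change of the 46 was -0.50. In gSOX10 #4, 5 were lower (18.8% of all genes) and 6 higher by the adjusted p (median 0.14). In CRT35, 5 of 46 fell past 2-fold with DMSO and 5 with Combo, led by RPL24 (-1.14 and -1.31). These counts are near the shares of all genes (7.98% and 10.2%). In CRT34, 0 did with DMSO (7.35% of all genes) and 1 with Combo (RPS2, -1.18, where 8.09% of all genes did). With DMSO in CRT34, 23 were lower by the adjusted p (18.8% of all genes).

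**Figure D5:**
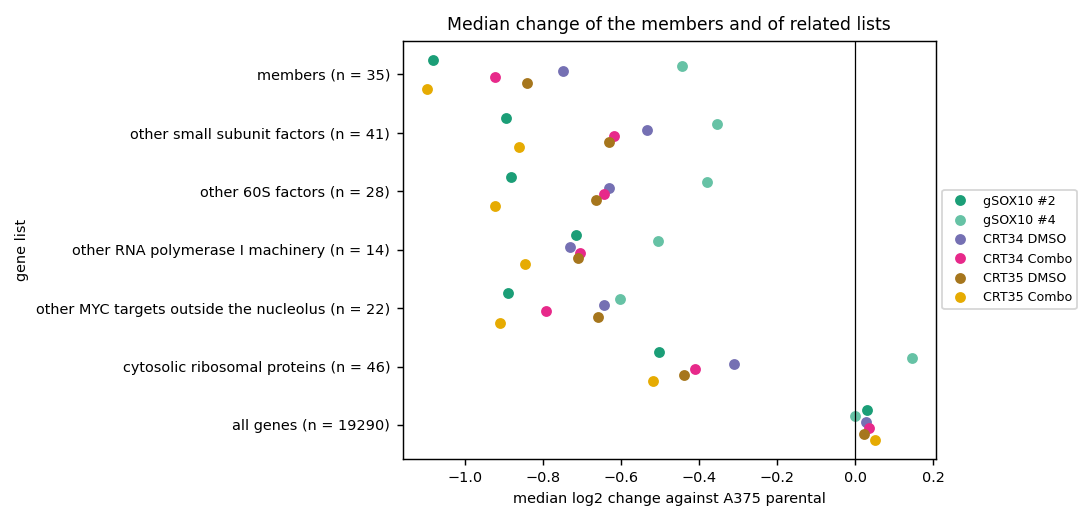
Median log2 change against parental cells (points, coloured by derived group) of the 35 members, of 5 related gene lists and of all 19290 genes. Medians of the members and of the assembly factor lists lie below 0 in each group, those of all genes lie at 0, and ribosomal proteins lie between, above 0 in gSOX10 #4 (0.14).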

How the data were processed

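RNA of 21 libraries from 7 groups of A375 cells was sequenced by the authors as 101-base read pairs. Per the labels, STAR 2.6.1a, RSEM, Picard and DESeq2 were used with GRCh38. The library kit differs between the GEO labels and the published methods, so whether counting used strand is not known here. The deposited signal values were gene counts that the authors had scaled by DESeq2-type size factors, and they were not whole reads, so no count model was used.

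One table per library gave 58870 genes. Symbols and positions came from GENCODE version 44, to which 58472 identifiers matched. Groups came from the labels. A value of at least 10 was required in at least 3 libraries, 1 was added before taking log2, and limma 3.58.1 (limma-trend, R 4.3.3) fitted 1 mean per group to all libraries with 14 residual degrees of freedom and no covariate. Calls used an adjusted p of 0.05 and 2-fold, the study's thresholds, and the adjusted p alone as a second rule. Depth is known only roughly, so no counting intervals were computed. The fit was run on simulated data with known changes and independent noise for each gene and library. Such data hold no shifts of whole libraries, so the run does not bear on those seen here. Replicate libraries correlated at r = 0.959 to 0.988 and libraries of different groups at r = 0.882 to 0.979, so these ranges overlap. No pair held identical values.

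The members and gene lists were chosen with earlier results of these data known. All members were accounted for, and the text named, in each role, the member of lowest p and those past both thresholds without overlap of libraries, up to 10. MYC and members that moved against the rest were also named, and in each other list the 2 genes of lowest p in each direction past both thresholds, with further genes of polyamine and pyrimidine synthesis and of the MYC network chosen after their values were seen. Alternatives were a pseudocount of 10, no filter, equal totals, quantile normalization, library weights, only the compared groups, a replicate block, and leaving out libraries. Python 3.11.15 read promoters and drew figures.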

Additional observations from a re-analysis of the deposited data

Results flagged for a closer look

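The SOX10 knockout clones, compared with the same parental libraries, differed from each other in 3 members by a direct test of the clones that passed both thresholds. NOP16 was 1.43 higher on the log2 scale in gSOX10 #4 than in gSOX10 #2, LYAR was 1.26 higher and RRP12 was 1.02 higher, in each case with all 3 gSOX10 #4 libraries above all 3 gSOX10 #2 libraries. Each clone comes from a different guide RNA and is 1 clone, so guide and clone cannot be told apart.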

How the results depend on the processing

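No member changed direction where it was called. Counts of members called in each comparison stayed within 1.5 times with a pseudocount of 10, without the filter, with only the compared groups in the fit, and without CRT34 Combo replicate 3 and CRT35 DMSO replicate 1 together (8 in CRT35 DMSO and 12 in CRT34 Combo). In CRT34 Combo the 16 calls became 8 with library weights and 10 with equal totals. Under quantile normalization gSOX10 #4 went from 3 calls to 1 and CRT34 DMSO from 8 to 4. Without the 3 libraries of lowest weight, an alternative added after seeing the data, CRT34 DMSO had 17. The cause was not tested. With equal totals the median of all genes was up to 0.15 on the log2 scale (gSOX10 #2, 0.03 in the main fit), where the members' median was then -0.96. Under quantile normalization it was as low as -0.13 (CRT35 Combo, 0.05 in the main fit), where the members' median was -0.99.

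Leaving out 1 library at a time, the calls ran from 20 to 24 in gSOX10 #2, 2 to 4 in gSOX10 #4, 2 to 17 in CRT34 DMSO (lowest without its replicate 3, highest without its replicate 1), 8 to 14 in CRT35 DMSO, 12 to 17 in CRT34 Combo, 15 to 25 in CRT35 Combo and 3 to 7 between the clones, and stayed at 0 in the other comparisons.

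Replicate numbers were not taken to pair libraries, since in no groups compared directly did all 3 same-numbered pairs correlate above 0.1 in their deviations from the group means. CRT34 Combo and CRT35 Combo, which meet only in the interaction, had correlations of 0.207 to 0.253. With the replicate block the counts were 3 in gSOX10 #4, 8 in CRT34 DMSO, 10 in CRT35 DMSO, 16 in CRT34 Combo, 20 in CRT35 Combo and 0 elsewhere, and 0 of 324 single results changed their call. The titles of gSOX10 #2 are numbered differently, so no block was fitted for it.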

Other observations

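DDX10, an RNA helicase of small subunit assembly that is not among the 35 genes and was picked out after its values were seen, went against the related factors. It was at 2407, 1948 and 2185 in parental cells, at 3771, 8465 and 5783 in CRT34 DMSO and at 13555, 12671 and 11548 in CRT35 DMSO. With both inhibitors it was at 1379, 1895 and 2979 in CRT34 and at 2617, 3818 and 3234 in CRT35. DDX10 rose by 1.39 and 2.53 on the log2 scale in the DMSO groups against parental cells (limma adjusted p = 4.81e-04 and 5.20e-07) and fell by 1.52 and 1.98 with Combo against DMSO (adjusted p = 0.00204 and 7.47e-04). It was the 1 gene of its list of 41 called in those Combo comparisons.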
